A study of Mus musculus with 6 samples.

Results

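The Ikaros and RUNX factors are transcription factors that set and keep lymphocyte identity. Taken here were 8 mouse genes, chosen by name from the 23850 gene entries of each deposited table: Ikzf1 (Ikaros), Ikzf2 (Helios), Ikzf3 (Aiolos), Ikzf5 (Pegasus), Runx1, Runx2, Runx3 and Cbfb. All 8 were present as a single entry, and 6 of them reached the level needed for a test. Their messenger RNA was compared in germinal centre B cells made in culture, the activated state in which B cells mutate their antibody genes. Wild type C57BL/6J follicular B cells had been activated for 4 days by IL-4 (1 ng/ml) and by feeder cells carrying CD40L. Treatment followed for 36 h, again on CD40L feeders and now with IL-21 (10 ng/ml), so every library carries both cytokines and the feeder contact. The 3 DMSO libraries had received the solvent, and the 3 CHIR99021 libraries a small molecule that inhibits the GSK3 kinases. The labels list 3 uM for both. The question was how the profile of these cells differs under GSK3 inhibition. The model is a culture without the tissue of a germinal centre, and no label says which mice the triplicates came from, so p-values measure the spread between these cultures.

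Ikaros proteins bind DNA through one group of zinc fingers and pair with each other through another, and they bring chromatin remodelling complexes such as NuRD to their target genes. Ikaros and Aiolos are needed for B cell development and for keeping B cell activation in check. RUNX proteins bind DNA through the Runt domain, and their partner CBF-beta, encoded by Cbfb, does not bind DNA itself but strengthens that binding. RUNX1 acts in early blood and B cell development and RUNX3 in T and B lymphocytes, while RUNX2 is best known from bone formation.

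Levels are given as FPKM, a fragment count scaled for transcript length and for library size, so that levels of different genes can be compared. Changes are differences of log2(FPKM + 1), CHIR99021 minus DMSO, with their standard errors (SE). They were tested with limma over all 10096 genes with a mean of at least 1 FPKM, with 3 libraries per group. In that test 13.3% of all genes were lower and 8.13% higher in CHIR99021 at an adjusted p under 0.05. The split depended on the scaling between libraries. Genes that rose made up 37.9% of all called genes without rescaling, 54.9% after upper-quartile scaling and 51.2% after quantile normalization. The median gene changed by -0.04. Libraries with the same replicate number in the 2 groups deviated together, so a fit with the number as a block is also given. That fit called 42.8% of all genes against 21.4% without it.

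Of the 6 tested members, Ikzf1, Ikzf3 and Runx1 fell with CHIR99021 and 0 rose. Ikzf5, Runx3 and Cbfb were also lower on average but did not pass the test. The median change of the 6 was -0.25, and all 6 changes were below 0, as were 54.8% of those of all tested genes. All 6 were lower in CHIR99021 within each of the 3 replicate numbers, a pattern shared by 37.3% of all tested genes. With the replicate block the same 3 members passed, where 24.4% of all genes were lower. In bulk RNA, fewer cells of a type and less RNA per cell cannot be told apart. With upper-quartile scaling limma called 0 of the 6 members, where 21.6% of all genes were called and 9.74% were lower. With quantile normalization only Ikzf1 passed, where 23.8% were called and 11.6% were lower. With the block, all 3 passed under both of these scalings, where 42.9% and 44.2% of all genes were called and 19.2% and 20.6% were lower.

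**Figure D1:**
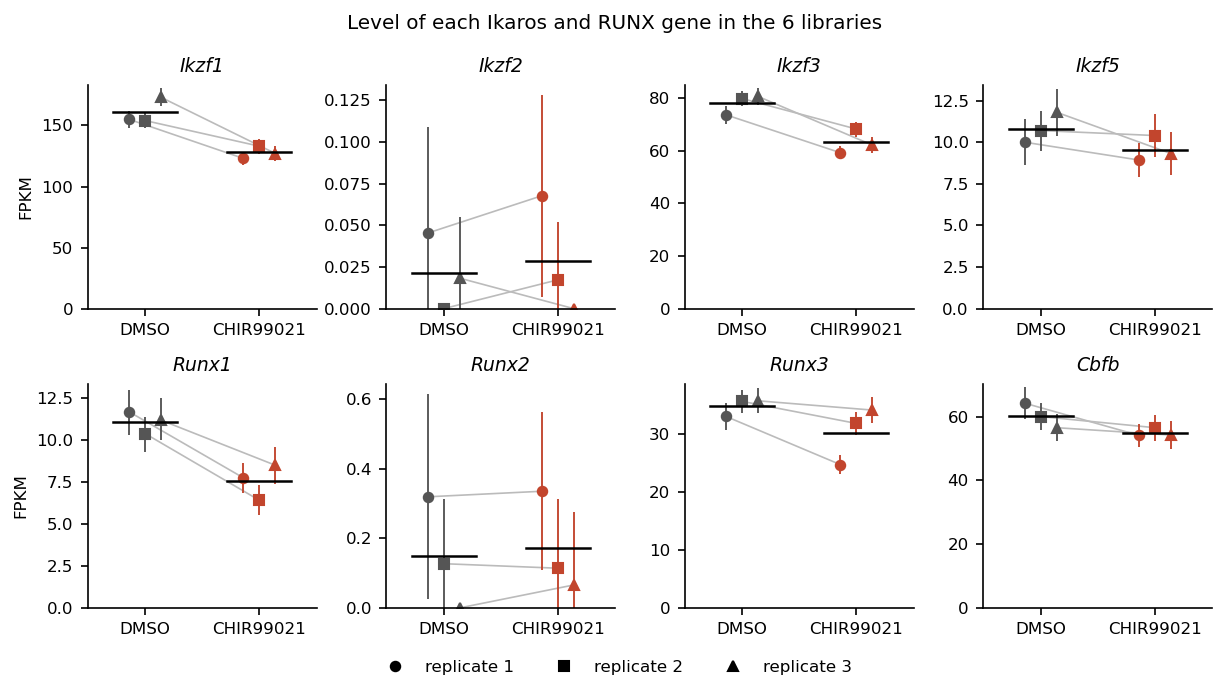
Level in FPKM (vertical axis, from 0 and different in each panel) of each of the 8 genes in the DMSO (grey) and CHIR99021 (red) libraries. Symbols mark the replicate number, thin lines join libraries of the same number, vertical bars are the Cufflinks confidence limits of that library and black bars are group means. Every CHIR99021 library is below every DMSO library for Ikzf1, Ikzf3, Runx1 and, narrowly, Cbfb, as for 23.1% of all tested genes. Ikzf2 and Runx2 stay below 0.4 FPKM.

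The order of levels in DMSO was Ikzf1, Ikzf3, Cbfb, Runx3, then Runx1 and Ikzf5 together, then Runx2 and Ikzf2. Runx1 (10.4 to 11.7 FPKM) and Ikzf5 (10.0 to 11.8 FPKM) overlapped in DMSO. They no longer did in CHIR99021, where Runx1 lay at 6.42 to 8.51 FPKM and Ikzf5 at 8.93 to 10.4. The ranges of Runx2 (0 to 0.319 FPKM) and Ikzf2 (0 to 0.0453 FPKM) overlapped as well. All other neighbours in the order were apart in both groups. By its mean over the 6 libraries, Ikzf1 stood at or above 95% of the tested genes, Ikzf3 at or above 89.3% and Runx1 at or above 44.0%.

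Ikzf1 (chromosome 11, 11686213 to 11772926, plus strand, mm10) encodes Ikaros and was the most abundant member. It had 155, 154 and 173 FPKM in DMSO replicates 1, 2 and 3, and 123, 133 and 127 FPKM in the CHIR99021 replicates of the same numbers. The highest CHIR99021 library lay below the lowest DMSO library, and replicate 3 showed the widest gap. The mean was 161 ± 10.6 FPKM in DMSO and 128 ± 5.08 in CHIR99021 (SD, n = 3 per group), or 79.6% of the DMSO level. Ikzf1 fell by 0.33 on the log2 scale (SE 0.08, adjusted p = 0.0276 by limma, or 0.00613 with the replicate block). Cufflinks placed the confidence limits of this gene within 4.06% to 4.49% of its value, less than the difference between groups.

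Ikzf3 (chromosome 11, 98464693 to 98546031, minus strand) encodes Aiolos, which pairs with Ikaros and is itself prominent in maturing B cells. It had 73.7, 79.9 and 80.7 FPKM in DMSO, and 59.3, 68.3 and 62.2 FPKM in CHIR99021. Every CHIR99021 library was below every DMSO library, with replicate 2 the closest pair. The mean went from 78.1 ± 3.85 to 63.3 ± 4.57 FPKM (SD, n = 3 per group), 81.0% of the DMSO level. Ikzf3 fell by 0.30 on the log2 scale (SE 0.09, adjusted p = 0.0422 by limma, or 0.00663 with the block).

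The falls of Ikzf1 and Ikzf3 were nearly in proportion. Their ratio was 1.93 to 2.14 in the DMSO libraries and 1.95 to 2.08 in the CHIR99021 libraries, so the groups overlapped. Summed over the 4 Ikzf genes, the level was 239 to 266 FPKM in DMSO and 192 to 212 FPKM in CHIR99021. Ikzf1 supplied 63.0% to 65.1% of that sum in DMSO and 62.9% to 64.3% in CHIR99021.

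**Figure D2:**
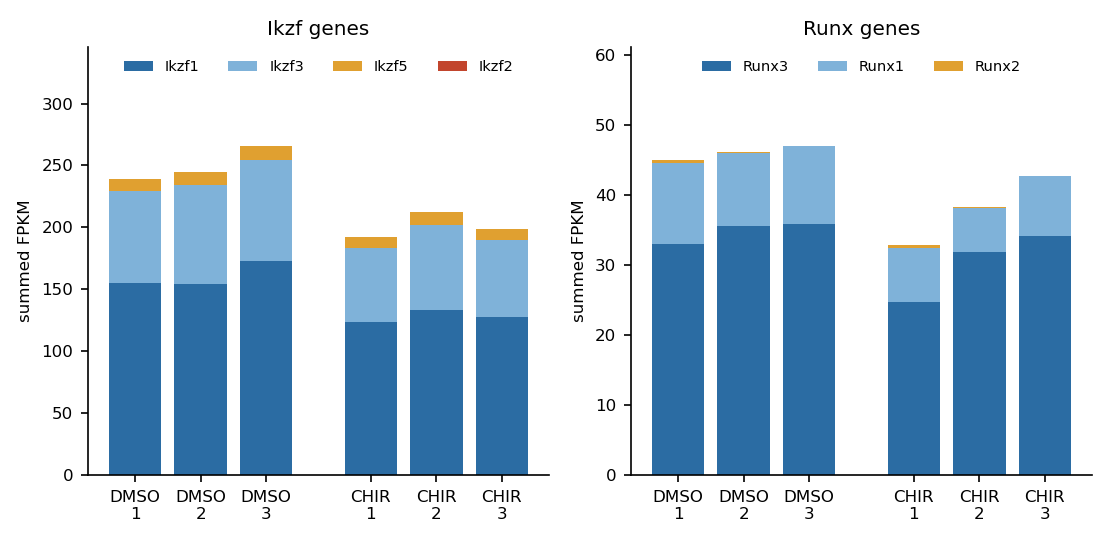
Summed FPKM (vertical axis) of the Ikzf genes (left) and Runx genes (right) in each library, stacked by gene, with no test made. The Ikzf bars are lower in CHIR99021 with the share of Ikzf1 between 62.9% and 65.1% throughout. The Runx bars are lower too, at 44.9 to 47.0 FPKM in DMSO and 32.8 to 42.7 in CHIR99021. Runx3 makes up 73.4% to 83.0% of the Runx bars.

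Ikzf5 (chromosome 7, 131388649 to 131410478, minus strand) encodes Pegasus, a more distant relative that is expressed outside lymphocytes too. It had 10.0, 10.7 and 11.8 FPKM in DMSO, and 8.93, 10.4 and 9.32 FPKM in CHIR99021, so the groups overlapped. Its change was -0.17 (95% interval -0.42 to 0.09, adjusted p = 0.321 by limma, or 0.155 with the block). That interval includes changes as large as those of Ikzf1 and Ikzf3. Its share of the Ikzf sum was 4.19% to 4.45% in DMSO and 4.66% to 4.90% in CHIR99021, without overlap. A share also moves with the other genes of the sum, and the level of Ikzf5 itself was lower at each replicate number.

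Ikzf2 (chromosome 1, 69531210 to 69685960, minus strand) encodes Helios, a factor of regulatory T cells and of blood stem cells. It was listed at 0.0453, 0 and 0.0183 FPKM in DMSO and at 0.0677, 0.0173 and 0 FPKM in CHIR99021, below the level needed for a test. Only CHIR99021 replicate 1 had a lower confidence limit above 0, so no difference was detectable at this level.

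Runx1 (chromosome 16, 92601466 to 92826066, minus strand) showed the largest change among the members tested. It had 11.7, 10.4 and 11.2 FPKM in DMSO replicates 1, 2 and 3, and 7.76, 6.42 and 8.51 FPKM in CHIR99021. All CHIR99021 libraries were below all DMSO libraries, and replicate 2 was the lowest of each group. The mean went from 11.1 ± 0.656 to 7.56 ± 1.06 FPKM (SD, n = 3 per group), 68.2% of the DMSO level. Runx1 fell by 0.50 on the log2 scale (SE 0.12, adjusted p = 0.0264 by limma, or 0.00409 with the block). Of all tested genes, 12.5% had a more negative change. The confidence limits of a single library were 10.4% to 14% away from the Runx1 value, wider than for Ikzf1.

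Runx3 (chromosome 4, 135120645 to 135177990, plus strand) was the most abundant RUNX gene. It had 33.0, 35.6 and 35.7 FPKM in DMSO, and 24.7, 31.8 and 34.1 FPKM in CHIR99021. CHIR99021 replicate 1 was low while replicate 3 lay inside the DMSO range. Its change was -0.21 (95% interval -0.50 to 0.08, adjusted p = 0.278 by limma, or 0.0767 with the block). With the block the 95% interval, which is not adjusted over genes, was -0.40 to -0.02. With 1 library left out, the change ran from -0.30 without CHIR99021 replicate 3 (adjusted p = 0.204) to -0.08 without CHIR99021 replicate 1 (0.654). The ratio of Runx3 to Runx1 was 2.83, 3.43 and 3.18 in DMSO and 3.19, 4.96 and 4.01 in CHIR99021. It was higher in CHIR99021 at each replicate number, though the ranges of the groups overlapped.

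Cbfb (chromosome 8, 105170674 to 105217988, plus strand), the shared partner, changed least of the tested members. It had 64.2, 60.0 and 56.5 FPKM in DMSO, and 54.1, 56.5 and 54.2 FPKM in CHIR99021. The groups were apart only by the gap between 56.50 FPKM in DMSO replicate 3 and 56.46 in CHIR99021 replicate 2. Such separation downward held for 4 of the 6 members and for 23.1% of all tested genes. The change of Cbfb was -0.13 (95% interval -0.31 to 0.06, adjusted p = 0.292 by limma, or 0.139 with the block). Cbfb exceeded the summed Runx genes in every library, by a factor of 1.2 to 1.43 in DMSO and 1.27 to 1.65 in CHIR99021.

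Runx2 (chromosome 17, 44495987 to 44814797, minus strand) was listed at 0.319, 0.127 and 0 FPKM in DMSO and at 0.335, 0.114 and 0.0660 FPKM in CHIR99021. It was not tested, and its span overlaps that of Supt3. In both groups replicate 1 was listed highest and replicate 3 lowest, an order that the confidence limits leave uncertain. Only replicate 1 of each group had a lower limit above 0 (0.0258 FPKM in DMSO and 0.108 in CHIR99021). The upper limits of replicate 2 reached 0.312 and 0.314 FPKM. Summed over 10 feeder fibroblast markers, the level had the same order, with 288, 103 and 71.5 FPKM in DMSO and 223, 88.0 and 52.2 FPKM in CHIR99021. Most of that sum was the collagen gene Col1a1. Singly, 4 of the 10 markers had this order in both groups (Col1a1, Col1a2, Col3a1 and Pdgfra), while Thy1 was highest in replicate 3 of both. Whether feeder RNA contributes to the Runx2 values was not tested.

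**Figure D3:**
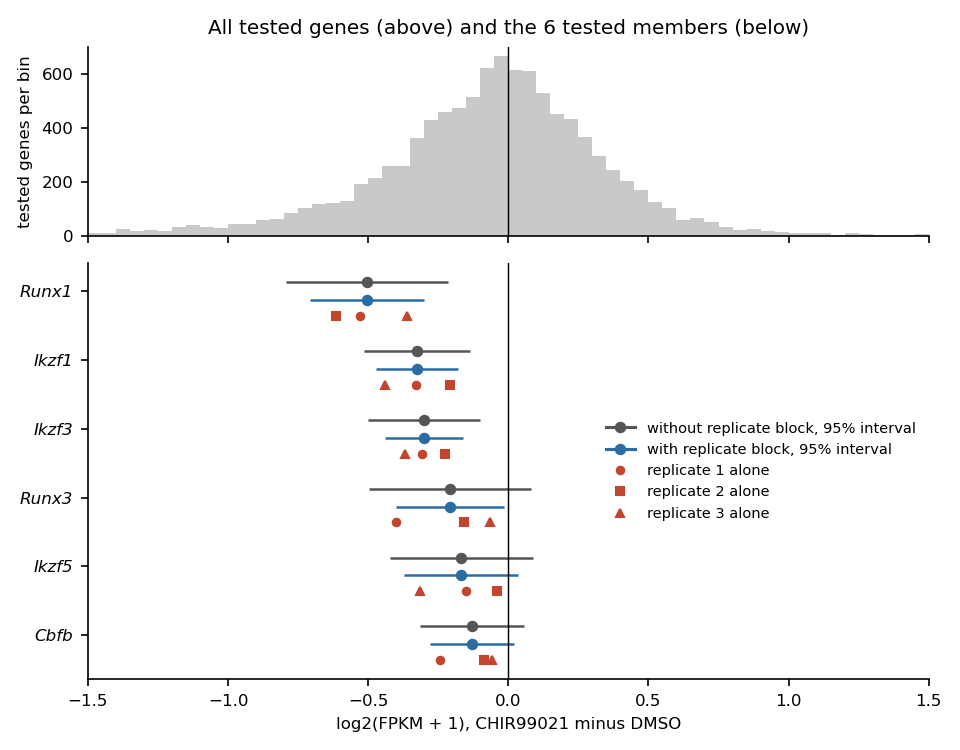
Upper panel: number of tested genes per bin of 0.05 of the difference in log2(FPKM + 1), CHIR99021 minus DMSO, with 116 genes beyond 1.5 either way not drawn. Lower panel: the difference for each tested member with its 95% interval without (grey) and with (blue) the replicate block, and for each replicate number alone (red symbols). All red symbols lie below 0, and without the block the intervals of Runx1, Ikzf1 and Ikzf3 exclude 0. With the block that of Runx3 excludes 0 as well.

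Without the block, the calls of the 3 members that fell were close to the threshold. The fits with 1 library left out were also made without the block. Leaving out 1 library at a time, the adjusted p of Ikzf1 ran from 0.0325 to 0.104 and only the fit without DMSO replicate 2 kept the call. For Ikzf3 it ran from 0.0497 to 0.143, with the call kept only without CHIR99021 replicate 2. For Runx1 it ran from 0.038 to 0.0836, with the call kept without DMSO replicate 2 or CHIR99021 replicate 3. With the block and both libraries of one number left out, Runx1 passed each time (adjusted p = 0.0148 to 0.0217). Ikzf1 and Ikzf3 then passed except without replicate 3 (adjusted p = 0.0515 and 0.0520).

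The promoters of the 3 RUNX genes have a paired RUNX motif in common. RefSeq promoter windows, 250 bases before to 50 after a transcript start on GRCm38.p6, were found for 6 of the 8 members, with 9 windows in all. Ikzf2 and Ikzf3 had none. The RUNX motif TGTGGT, read on both strands, occurred in 3 of these 9 windows and in 16.8% of all 32851 windows. In the first window of Runx1, of Runx2 and of Runx3 it occurs as a pair on the strand opposite to the gene, spelled on the gene strand as ACCACA, any 2 bases and ACCACA again. This spelling was chosen after the sequences were seen. Only 7 of all 32851 windows hold it (0.0213%), and those of the 3 Runx genes are among them. They are shown because the pair is the element the 3 genes have in common, with the RUNX motifs in capitals, 5′ to 3′ on the gene strand.
Runx1 (chr16:92826025-92826054, minus strand, 21 to 50 bases after the start): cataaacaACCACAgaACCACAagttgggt
Runx2 (chr17:44814583-44814612, minus strand, 16 to 45 bases after the start): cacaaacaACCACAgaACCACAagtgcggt
Runx3 (chr4:135120503-135120532, plus strand, 142 to 113 bases before the start): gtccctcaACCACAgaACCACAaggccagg
The Runx1 and Runx2 stretches are identical at 27 of 30 bases, and an unbroken run of 18 bases is shared by Runx1 and Runx3. A match is a description of letters and not evidence of binding. Gene-level FPKM do not tell which start was used, and the deposited tables list 2 transcript start identifiers for Runx1 and 4 for Runx2.

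The Ikaros motif TGGGAA occurred in 1 of the 9 windows and in 25.6% of all windows. The TCF/LEF motif CTTTGA, the site of the factors that beta-catenin works through, occurred in 2 of the 9 and in 16.0% of all. Neither Ikzf1 window nor the Cbfb window held any of these motifs. The matches are printed because the first lies beside the Runx3 pair and the others are TCF/LEF motifs, the sites of the pathway that GSK3 restrains, again with the motif in capitals.
Runx3, Ikaros motif (chr4:135120479-135120508, plus strand): ttgggttgacacTGGGAAggtctggtccct
Ikzf5, TCF/LEF motif (chr7:131410605-131410634, minus strand): cctcacacacccCTTTGAgtccccgcccac
Runx2, TCF/LEF motif (chr17:44814713-44814742, minus strand): agtcccactttaCTTTGAgtactgtgaggt
The windows of Ikzf1 and Runx1 hold no TCF/LEF letters, which says nothing of sites elsewhere, and Ikzf3 had no window. Of the genes with a TCF/LEF match, Ikzf5 did not pass the test and Runx2 was not tested. Whether these motifs bear on any change was not tested.

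**Figure D4:**
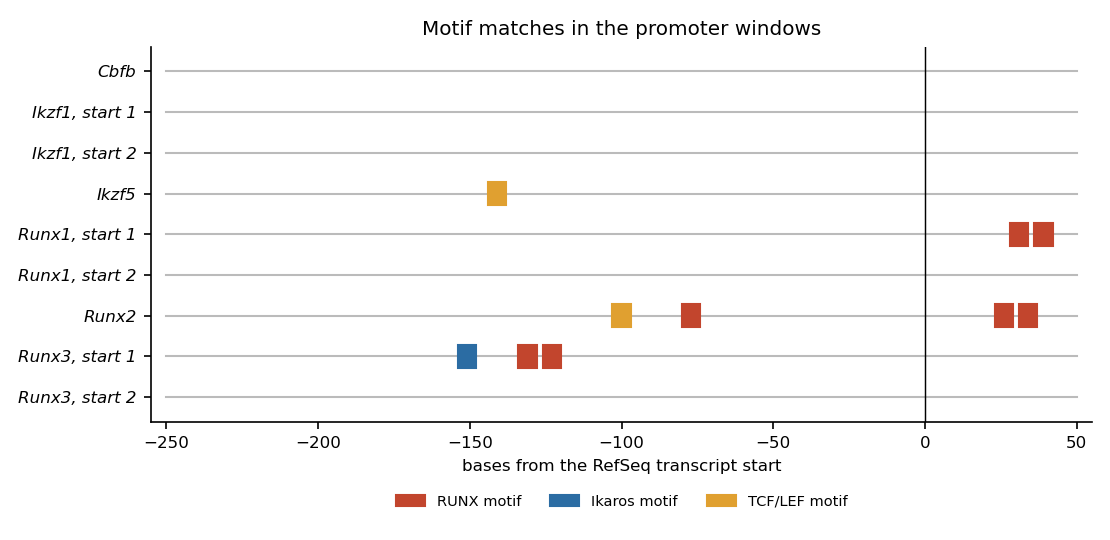
Position of each motif match, in bases from the RefSeq transcript start (horizontal axis, start at 0), in the 9 promoter windows found for the members. Red boxes mark the RUNX motif, blue the Ikaros motif and yellow the TCF/LEF motif. The paired RUNX boxes appear in the first windows of Runx1, Runx2 and Runx3, and 5 windows hold no match.

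Genes known to work with or under these factors were then read from the same fit. These lists were chosen with earlier results of these data known, so their counts are a description only. Of 73 such companion genes 57 were tested, and 14 of them changed (24.6%, against 21.4% of all genes), 4 higher and 10 lower. With upper-quartile scaling 6 were higher and 6 lower, and with quantile normalization 4 were higher and 10 lower. Among all called genes, 62.1% were lower without rescaling, 45.1% with upper-quartile scaling and 48.8% with quantile normalization. The median change of the companion genes was -0.13 without rescaling. With the replicate block 24 changed (42.1%, against 42.8% of all genes), 7 higher and 17 lower. The lists that follow are to be read against the shares of all genes, 13.3% lower and 8.13% higher, or 24.4% and 18.4% with the block.

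NuRD, the nucleosome remodelling and deacetylase complex that Ikaros recruits, was tested for all 13 listed genes. Of these 1 rose and 2 fell, where 21.4% of all genes were called, and the median change was -0.04. With the block 3 rose and 4 fell, and with upper-quartile scaling 3 rose and 1 fell. Quantile normalization left the count at 1 higher and 2 lower. Mta3, a subunit known as a partner of BCL6 in germinal centre B cells, had 33.6, 29.6 and 35.5 FPKM in DMSO and 18.7, 17.0 and 20.2 in CHIR99021. All its CHIR99021 libraries were well below the DMSO libraries (log2 change -0.79, adjusted p = 0.0024 by limma). Its relative Mta2 fell from 96.2 ± 1.02 to 76.4 ± 3.32 FPKM (SD, n = 3 per group, log2 change -0.33, adjusted p = 0.0175 by limma). The deacetylase gene Hdac2 rose from 30.2 ± 1.38 to 40.8 ± 2.69 FPKM (log2 change 0.42, adjusted p = 0.013). The ATPase gene Chd4, chosen after its values were seen for its central place in the complex, had mean levels of 63.8 FPKM in DMSO and 56.6 in CHIR99021 and did not pass (adjusted p = 0.413). The call of Mta2 was lost without DMSO replicate 3 or CHIR99021 replicate 1 or 3 (adjusted p = 0.0532, 0.0604 and 0.0789) and with upper-quartile scaling (0.059). Quantile normalization kept the call of Mta2 (0.0259). The call of Hdac2 was lost without CHIR99021 replicate 3 (0.0629).

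Among 6 tested genes for other corepressors and remodellers of Ikaros, from the Sin3, CtBP and SWI/SNF complexes, limma called 0, and 1 had an unadjusted p under 0.05. With the block 1 rose and 2 fell. Cereblon is the substrate receptor of the ligase through which thalidomide-type drugs degrade Ikaros and Aiolos proteins. Of its 5 ligase genes Ddb1 rose, from 92.3 ± 1.07 to 111 ± 2.16 FPKM (log2 change 0.27, adjusted p = 0.0299), a call lost when any 1 of the 6 libraries was left out (adjusted p = 0.0520 to 0.114). Crbn itself, also chosen after its values were seen, had 14 FPKM in DMSO and 12.2 in CHIR99021 and did not pass (adjusted p = 0.201). Casein kinase 2 and protein phosphatase 1 add and remove phosphates on Ikaros. Of their 6 genes the phosphatase gene Ppp1ca fell from 372 ± 39.4 to 279 ± 17.9 FPKM (log2 change -0.41, adjusted p = 0.0296). Upper-quartile scaling ended this call (0.0957) and quantile normalization kept it (0.00766). When a library was left out the call was kept only without DMSO replicate 2 (adjusted p = 0.0557 to 0.0950 without the others).

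RUNX cofactors were tested for 14 of 17 listed genes, of which 1 rose and 2 fell, with a median change of -0.08. Their share called was the same as the 21.4% of all genes. Cbfa2t3, a corepressor of the ETO family, had 8.10, 9.87 and 10.2 FPKM in DMSO and 3.59, 4.6 and 3.44 in CHIR99021. It was lower in every CHIR99021 library (log2 change -1.09, adjusted p = 0.0023). The Groucho-type corepressor gene Tle3 had 32.0, 26.2 and 37.5 FPKM in DMSO and 16.6, 16.5 and 17.7 in CHIR99021 (log2 change -0.86, adjusted p = 0.00409). The methyltransferase gene Prmt1, whose product methylates RUNX1, rose from 166 ± 19.2 to 211 ± 12.3 FPKM (log2 change 0.35, adjusted p = 0.0465). When a library was left out, its call was kept only without DMSO replicate 3 (adjusted p = 0.0651 to 0.149 without the others).

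**Figure D5:**
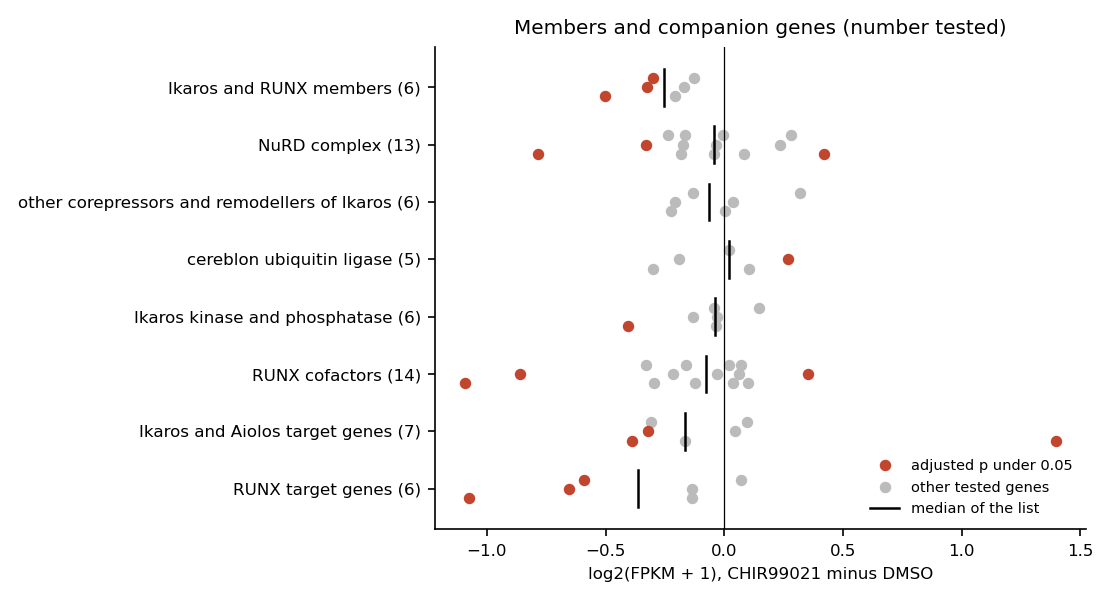
Difference in log2(FPKM + 1), CHIR99021 minus DMSO (horizontal axis), of each tested member and companion gene, by list, with the number tested in brackets. Red points passed the test and black bars are list medians. The medians run from -0.36 for RUNX target genes to 0.02 for the cereblon ligase genes, and Irf4 is the point farthest to the right.

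Ikaros and Aiolos target genes differed widely in level. The surrogate light chain gene Igll1 and Vpreb2, both silenced by these factors as B cells mature, were listed at 0 in all 6 libraries, as was the recombinase gene Rag2. Of 7 tested targets 1 rose and 2 fell, where 8.13% and 13.3% of all genes did, and with upper-quartile scaling 1 rose and 0 fell. Quantile normalization left the count at 1 higher and 2 lower. Irf4, a factor of plasma cell differentiation, had 28.1, 31.6 and 31.7 FPKM in DMSO and 73.6, 89.5 and 83.3 in CHIR99021 (log2 change 1.40, adjusted p = 0.000431). Syk, the kinase of B cell receptor signalling, fell from 51.0 ± 1.23 to 38.8 ± 2.07 FPKM (log2 change -0.39, adjusted p = 0.0118). Its adaptor gene Blnk fell from 105 ± 7.15 to 83.9 ± 3.07 FPKM (log2 change -0.32, adjusted p = 0.0285). Upper-quartile scaling ended the calls of Syk and Blnk (adjusted p = 0.0643 and 0.13), while quantile normalization kept both calls (0.0273 and 0.028). Leaving out CHIR99021 replicate 3 ended that of Syk (0.0602), and leaving out any library but DMSO replicate 2 ended that of Blnk (0.0571 to 0.119).

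RUNX target genes were tested for 6 of 12 listed genes, and 3 fell while 0 rose, with a median change of -0.36. Of all genes 13.3% fell and 8.13% rose. The count was the same with the block, where 24.4% of all genes fell. The B cell receptor gene Cd79a had 1471, 974 and 1202 FPKM in DMSO and 687, 487 and 549.8 in CHIR99021 (log2 change -1.07, adjusted p = 0.00606). Ebf1, a factor that specifies B cells, fell from 30.5 ± 1.39 to 19.0 ± 1.25 FPKM (log2 change -0.66, adjusted p = 0.00251). Spi1, which encodes PU.1, fell from 64.2 ± 5.83 to 42.2 ± 0.825 FPKM (log2 change -0.59, adjusted p = 0.00378). Of the 6 listed genes below the limit on level, Il3, a cytokine gene of T cells, was listed at 0 in all libraries. Cd79a, Ebf1 and Blk also stand in the B cell marker list below, and Blk did not pass (adjusted p = 0.603). Csf1r and Mpo also stand in the myeloid list and Cd4 in the T cell list. Irf4, from the Ikaros and Aiolos targets, also stands in the plasma cell list, so its rise is counted in both.

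For each member that fell, the 3 genes with the most similar profile over the 6 libraries were found among 9606 candidates, by the distance between centred log2 values. They were Nrbp1, Wdr26 and Fam3c for Ikzf1 (distances 0.039 to 0.0746), and Akap10, Traf2 and Dock2 for Ikzf3 (0.0499 to 0.0639). For Runx1 they were Ets1, Trim59 and Necap2, with distances of 0.123 to 0.149. Ets1 encodes an ETS transcription factor of lymphocytes, and it had 79.8 and 58.4 FPKM in DMSO and CHIR99021. With 6 libraries in 2 groups such closeness is a description only.

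Markers of the cells in the cultures were checked beside these values. Of all tested genes 13.3% were lower and 8.13% higher, or 24.4% and 18.4% with the block. B cell markers were abundant, with a summed level of 2765 to 3653 FPKM over 10 genes in DMSO and 1373 to 1619.9 in CHIR99021, and 8 of 9 tested fell. Over 8 germinal centre markers the sums were 132 to 141 and 118 to 128 FPKM, with 1 of 7 tested lower, or 3 lower and 1 higher with the block. Plasma cell markers summed to 896 to 1219.6 FPKM in DMSO and 1035 to 1152 in CHIR99021. Most of that sum was Jchain (mean 452 FPKM in DMSO, 289 in CHIR99021) and Mzb1 (332 and 468), which moved in opposite directions. Of 8 tested, 4 were higher (Irf4, Prdm1, Slamf7 and Mzb1) and 1 lower (Tnfrsf13b), or 5 and 2 with the block. T cell markers summed to 13.8 to 17.5 and 12.4 to 14.8 FPKM, nearly all from Lck, with Cd3e, Cd8b1 and Bcl11b listed at 0 throughout. Over 9 myeloid markers the sums were 6.63 to 8.18 and 2.54 to 7.16 FPKM, of which Itgam fell (5.34 to 1.42 FPKM on average, adjusted p = 0.00264), and Cd14 was listed at 0. NK cell markers summed to 1.78 to 3.93 and 1.88 to 3.03 FPKM. Over 10 feeder fibroblast markers the sums were 71.5 to 288 and 52.2 to 223 FPKM, of which Thy1, a gene that T cells also express, fell (adjusted p = 0.0278). With the block 3 of the 4 tested feeder markers fell, the others being Col1a2 (log2 change -0.42, adjusted p = 0.00479) and Col3a1 (-0.61, adjusted p = 0.00629). The part of these marker differences in the falls of Ikzf1, Ikzf3 and Runx1 was not tested.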

How the data were processed

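Polyadenylated RNA of 3 DMSO and 3 CHIR99021 cultures was sequenced from stranded libraries, per the labels' protocols. The authors deposited gene-level FPKM with confidence limits for each library, per the file headers. The submitters' processing notes name cutadapt 1.12, TopHat2 2.1.1, Cufflinks 2.2.1 and mm10. The sources used here do not give the gene annotation, the strand setting or the handling of multiply mapped reads. Depth is unknown from FPKM, so the Cufflinks limits are given for precision.

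Values were transformed to log2(FPKM + 1). Genes with a mean of at least 1 FPKM over the 6 libraries were tested with limma 3.58.1 (R 4.3.3; empirical Bayes with a variance trend), two-sided, with Benjamini-Hochberg adjustment over all tested genes and a threshold of 0.05. The fit without the block was tested on simulated data, with independent libraries and changes larger than those of Ikzf1 and Ikzf3. The fit with the block was not tested in this way. The members and gene lists were chosen with earlier results of these data known. From each list, up to 4 genes with the smallest adjusted p under 0.05 were named. Deviations from the group means correlated at 0.535, 0.490 and 0.517 for libraries with the same replicate number and at -0.352 to -0.140 for others, so the numbers were taken to pair the libraries. Alternatives were pseudocounts of 0.1 and 5, no limit or a limit of 5 FPKM, upper-quartile and quantile scaling, no variance trend, the replicate block and each library left out. Combinations of the block with a scaling or with a number left out were added after seeing the data. Promoter windows came from RefSeq, and strands from GENCODE vM21.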

Additional observations from a re-analysis of the deposited data

How the results depend on the processing

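No tested member changed sign in any alternative, and Ikzf5, Runx3 and Cbfb passed the threshold in none. The number of members called, 3 with the settings above, was 1 without a limit on level (6.66% of all genes lower), 0 with upper-quartile scaling (9.74%), 1 with quantile normalization (11.6%) and 1 without the variance trend (12.5%). It was 0 to 2 when 1 library was left out (7.33% to 12.9%), and 1 to 3 with the replicate block and 1 number left out (16.0% to 22.1%).

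The change of Ikzf1 was -0.25 with upper-quartile scaling (adjusted p = 0.062) and -0.33 without the variance trend (0.0572). It ran from -0.36 to -0.27 with 1 library left out. That of Ikzf3 was -0.30 without a limit on level (0.0539), -0.22 with upper-quartile scaling (0.0913), -0.26 with quantile normalization (0.071) and -0.30 without the trend (0.0786). It ran from -0.36 to -0.26 with 1 library left out. That of Runx1 was -0.50 without a limit (0.0523), -0.43 with upper-quartile scaling (0.0572) and -0.42 with quantile normalization (0.0734). It ran from -0.58 to -0.40 with 1 library left out. The causes were not tested.

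The replicate block, which uses the pairing of libraries by number, raised the genes called in the whole table from 2164 to 4321 as deposited, from 2182 to 4336 with upper-quartile scaling and from 2406 to 4460 with quantile normalization. As deposited, it raised the companion genes called from 14 to 24 and changed the call of no member. It raised the members called from 0 to 3 with upper-quartile scaling and from 1 to 3 with quantile normalization. With 1 number left out, the block gave 2790.0 (without replicate 3), 3333 (without 1) and 3665 (without 2) genes in the whole table and 16 to 23 companion genes. The changes of Ikzf1 and Ikzf3 under the block without replicate 3 were -0.27 and -0.27.

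Leaving out 1 library gave 1069 to 2038 genes in the whole table and 7 to 12 companion genes. The lowest count of both kinds came without CHIR99021 replicate 3. The whole-table count also fell to 1334 without DMSO replicate 3 and 1441 without CHIR99021 replicate 2, and the companion count to 9 without CHIR99021 replicate 1. Of the 14 companion genes named, Mta3, Cbfa2t3, Tle3, Irf4, Ebf1, Spi1 and Cd79a kept their calls in all 19 alternatives. With the change the same size, Ppp1ca (-0.41) and Prmt1 (0.35) lost theirs without a limit on level (adjusted p = 0.0551 and 0.0763). Ppp1ca, Prmt1, Blnk (-0.32) and Ddb1 (0.27) lost theirs without the variance trend (0.05, 0.077, 0.0593 and 0.0688).

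The confidence limits of Runx1 and Ikzf5 in a single library reached 14% of the value. A difference between 2 libraries carries the limits of both, so small differences of these genes between 2 libraries were not detectable. The values of Ikzf2 and Runx2 allow no comparison. No protein was measured.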

Other observations

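Ikzf4, which encodes Eos and is the family gene not among the 8, was looked at after its values were seen. It was listed at 0 in all 3 DMSO libraries and at 0.0305, 0.0383 and 0.0889 FPKM in CHIR99021 replicates 1, 2 and 3, below the level needed for a test.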
